A study of Mus musculus with 16 samples.

Results

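Sox genes encode transcription factors that share an HMG box, the domain with which they grip the minor groove of DNA and bend it. The 10 Sox genes described here are Sox4, Sox5, Sox6, Sox7, Sox8, Sox9, Sox10, Sox11, Sox17 and Sox18. They were found by symbol in a table of raw read counts for 29730 genes, in which 10 of 10 were present, and 10 of 10 passed the filter on low counts that left 14960 genes for testing. RNA was sequenced from the tibialis anterior, a mainly fast muscle of the shin, in 16 male C57BL/6N mice aged 7 weeks. Wild-type mice received saline (WT_PBS) or the antisense oligonucleotide ASO1 (WT_ASO), and Bin1mck-/- mice likewise received saline (KO_PBS) or ASO1 (KO_ASO), with 4 samples in each group. The oligonucleotide is directed against Dnm2 according to the series title, which calls the Bin1mck-/- mouse a model of recessive centronuclear myopathy. Neither the deleted part of Bin1 and the cells that lost it nor the dose and schedule of injection are given in the sources used. The set was chosen with earlier results in view, since Sox11 was selected on its difference between KO_ASO and WT_PBS, and the other 9 joined it as Sox genes.

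Sox proteins are sorted into groups by the likeness of their HMG boxes. Sox4 and Sox11 belong to group C, activators best known from developing neurons and other immature cells. Sox5 and Sox6, of group D, lack an activation domain of their own, and Sox6 is known in muscle for holding slow fibre genes down in fast fibres. Sox8, Sox9 and Sox10 form group E, known from satellite cells, cartilage and Schwann cells respectively, and Sox7, Sox17 and Sox18 form group F, known from blood and lymph vessel walls. Vessels, nerve and connective tissue lie between the fibres of the tibialis anterior. In RNA from whole muscle, fewer cells of a type and less RNA per cell cannot be told apart.

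Total counts ran from 27591900 to 40862854 per sample. Levels are given as CPM, the usual scale of counts relative to library size, with library sizes scaled by TMM, a trimmed mean of log ratios between libraries. Bin1 checked the genotype labels, with 463 to 620 CPM in the 8 wild-type samples and 31.7 to 47.7 CPM in the 8 knockout samples. Dnm2 checked the treatment labels, with 50.2 to 67.7 CPM under saline and 20.7 to 31.1 CPM under the oligonucleotide. The 8 muscle fibre markers had reads in all 16 samples, and 3 of them were lower in KO_PBS than in WT_PBS. Their sum was 187555 to 234198 CPM in WT_PBS and 146942 to 168969 CPM in KO_PBS. Markers of some other cell types also moved with the genotype, and some with the oligonucleotide. All 7 macrophage markers rose in KO_PBS over WT_PBS, from a summed level of 40.7 to 66.8 CPM to one of 107 to 316 CPM, and 4 of 6 fibro-adipogenic markers rose, from 227 to 290 CPM to 320 to 467 CPM. All 4 satellite cell markers fell, from 14.6 to 20.5 CPM to 5.79 to 7.53 CPM. In KO_ASO vs KO_PBS 5 of 7 macrophage markers fell, to a sum of 43.2 to 66.1 CPM, as did 1 of 6 fibro-adipogenic markers, with a sum of 208 to 352 CPM in KO_ASO. Schwann cell markers overlapped between WT_PBS and KO_PBS, with sums of 36.7 to 61.2 CPM and 33.2 to 66.1 CPM.

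In saline-treated mice Sox11 was far higher in knockout than in wild-type muscle, Sox9 was also higher, and Sox6 was lower. Under the oligonucleotide Sox11 in knockout muscle fell to 29.5% of its saline level, as estimated by edgeR. These calls were made with the edgeR quasi-likelihood test at a Benjamini-Hochberg adjusted P value under 0.05 over all genes tested. In KO_PBS vs WT_PBS 3 of 10 Sox genes were differentially expressed genes (DEGs), 2 higher and 1 lower, against 12.6% of all genes tested (7.43% higher and 5.12% lower). One of them is Sox11, whose WT_PBS values took part in its choice, and of the other 9 genes Sox9 and Sox6 were called. With library totals in place of TMM, 1942 of 2202 DEGs were higher, against 1112 of 1878 with TMM, since that scaling moved the median log2 fold change (log2FC) of all genes from -0.01 to 0.14. The same 3 Sox genes were called with library totals. In KO_ASO vs KO_PBS 1 of 10 was a DEG, Sox11, and it was lower, against 3.64% of all genes (2.83% lower), but its KO_ASO values took part in its choice, so nothing is read from that count. Of all DEGs in that comparison 120 of 544 were higher with TMM and 63 of 760 with library totals, and in KO_ASO vs WT_ASO 6 of 11 and 14 of 16.

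**Figure D1:**
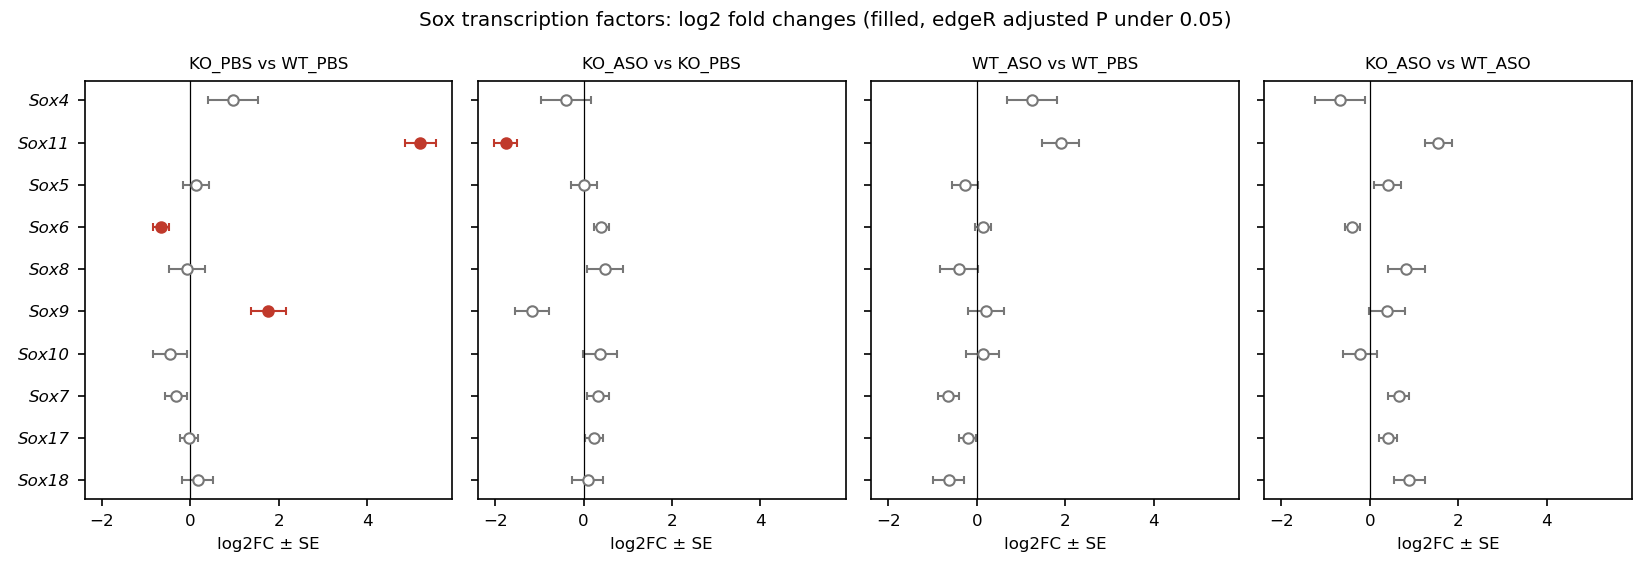
Log2FC with standard error (SE) of the 10 Sox genes in 4 comparisons, with filled points for edgeR adjusted P values under 0.05. Sox11 stands at 5.21 in KO_PBS vs WT_PBS and at -1.76 in KO_ASO vs KO_PBS, while WT_ASO vs WT_PBS and KO_ASO vs WT_ASO hold open points only.

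In wild-type muscle the oligonucleotide gave 0 Sox DEGs by edgeR (WT_ASO vs WT_PBS), against 0.00668% of all genes, and 0 by DESeq2 and by limma-voom. At an unadjusted P value under 0.05, 3 Sox genes were picked out, namely Sox11 and Sox4 on the higher side and Sox7 on the lower. Sox11 was chosen in part on WT_PBS values. The Sox4 log2FC was 1.24 with WT_ASO replicate 2 and -0.19 without it. No share of all genes is given for the unadjusted threshold, so counts at it are not read as results. In KO_ASO vs WT_PBS 0 of the 9 Sox genes other than Sox11 were called by edgeR, against 0.0401% of all genes, and 0 had an unadjusted P value under 0.05, with 0 called by DESeq2 and limma-voom too. In KO_ASO vs WT_ASO edgeR called 0 of 10, against 0.0735% of all genes, DESeq2 called 1 and limma-voom 0, and 4 had an unadjusted P value under 0.05 (Sox6, Sox7, Sox11 and Sox18). The interaction, which asks whether the oligonucleotide difference depends on the genotype, was called for 1 of 10, Sox11, against 0.575% of all genes, and it too uses the groups by which Sox11 was chosen. Of 47 two-sided exact permutation tests of single Sox values, 7 gave 0.0286, the smallest P value that 4 samples against 4 allow, which was 0.192 after Benjamini-Hochberg adjustment over the 47. Among the 7 were those of Sox11 in KO_ASO vs KO_PBS and in KO_ASO vs WT_ASO. They use KO_ASO values that took part in its choice, so nothing is read from that count.

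**Figure D2:**
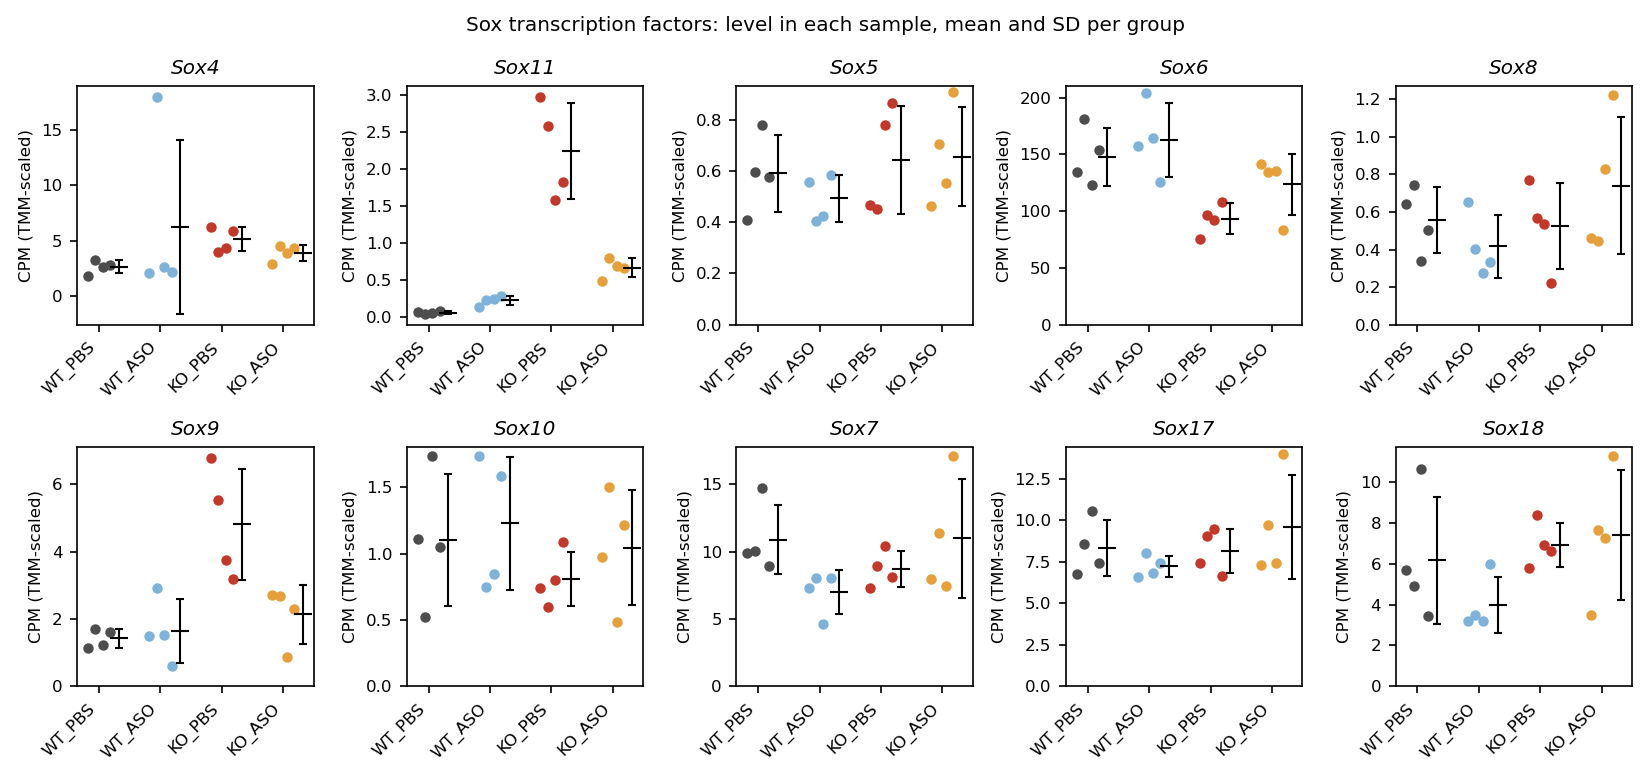
Level of each of the 10 Sox genes in CPM in every sample (points), with the mean and SD of the 4 samples of a group (bars). The 4 KO_PBS points of Sox11 lie above all other samples, and 1 WT_ASO point of Sox4 stands at 18.0 CPM.

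Per length of exon, the levels in WT_PBS spanned a wide range. Sox6 was the most abundant Sox gene at 9.98 ± 1.72 CPM per kb (SD, n = 4). The group F genes followed, Sox18 at 3.81 ± 1.93, Sox7 at 3.30 ± 0.785 and Sox17 at 1.74 ± 0.350 CPM per kb. Sox18 overlapped both Sox7 and Sox17 in its samples, and Sox17 lay below Sox7. Sox4 at 0.549 ± 0.125, Sox10 at 0.362 ± 0.163 and Sox9 at 0.343 ± 0.0682 CPM per kb came next, with each of these overlapping its neighbour in the order. Sox8 at 0.179 ± 0.0568 and Sox5 at 0.0410 ± 0.0105 CPM per kb had lower means, with Sox8 overlapping Sox10 in its samples. Sox11 was last at 0.0067 ± 0.0019. In KO_PBS the mean of Sox11 was 0.270 CPM per kb, beside 0.265 for Sox10, and the mean of Sox9 was 1.16 CPM per kb, beside 1.07 for Sox4.

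**Figure D3:**
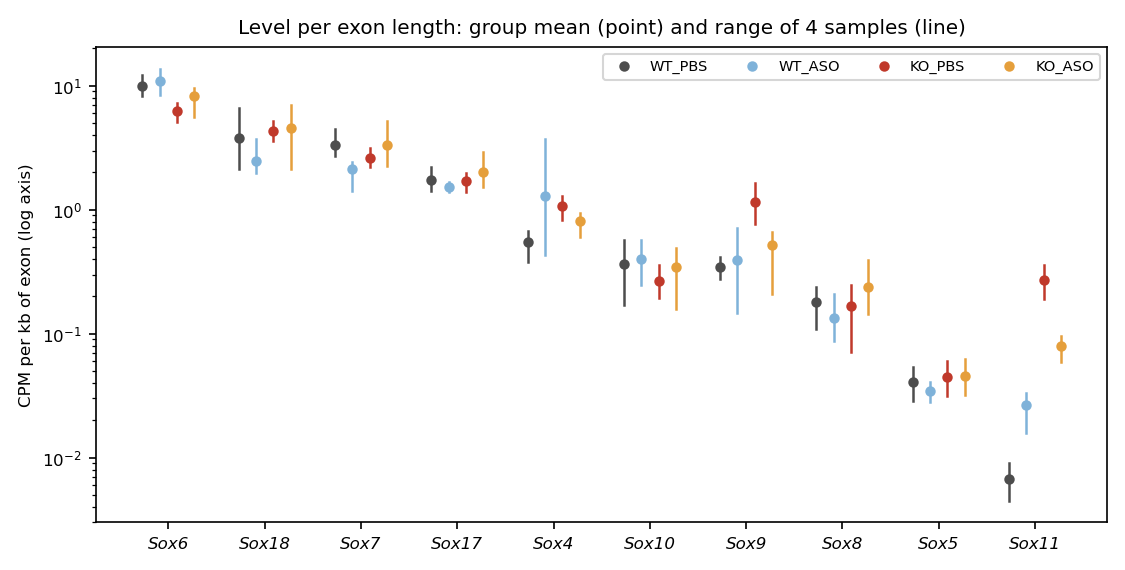
Level per exon length in CPM per kb on a log axis, with the mean of each group (point) and the range of its 4 samples (line), in the order of WT_PBS means. Sox6 heads every group, and Sox11 moves from 0.0067 CPM per kb in WT_PBS to 0.270 in KO_PBS.

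Sox11 (ENSMUSG00000063632) is a gene of 1 exon on chromosome 12, 27334264 to 27342574, minus strand, GRCm38. Its partner in group C, Sox4 (ENSMUSG00000076431), also has 1 exon and lies on chromosome 13, 28948919 to 28953713, minus strand. Sequences of 250 bases before the transcription start, from RefSeq on GRCm38.p6, are shown for these 2 genes because they are the group C members of the 10. RefSeq places these starts elsewhere than the GENCODE coordinates just given, so the Sox4 window runs into the GENCODE gene and the Sox11 window ends short of it. Capitals mark E-boxes, the letters CANNTG that myogenic factors such as Myog can bind, which read the same pattern on both strands.
Sox11, chr12:27342719-27342968, minus strand: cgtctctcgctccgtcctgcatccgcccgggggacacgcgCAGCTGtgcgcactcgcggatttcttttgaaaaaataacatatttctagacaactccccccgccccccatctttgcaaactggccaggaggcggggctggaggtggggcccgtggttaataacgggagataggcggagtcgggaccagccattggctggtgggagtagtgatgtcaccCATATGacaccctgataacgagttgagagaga
Sox4, chr13:28953700-28953949, minus strand: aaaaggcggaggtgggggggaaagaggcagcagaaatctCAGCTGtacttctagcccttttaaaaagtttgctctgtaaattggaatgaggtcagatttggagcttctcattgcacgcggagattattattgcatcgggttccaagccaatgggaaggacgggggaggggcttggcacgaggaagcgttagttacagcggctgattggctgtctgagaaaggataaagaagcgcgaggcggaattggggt
The Sox11 sequence holds 2 E-boxes, CAGCTG at -210 to -205 and CATATG at -32 to -27, counted from the start. The Sox4 sequence holds 1, CAGCTG at -211 to -206. A CANNTG was found in 66.2% of 32851 RefSeq sequences of the same length, and CAGCTG in 13.0%. These matches describe letters and not binding.

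The Sox11 reads were few in wild-type muscle and are therefore given as raw counts. The gene passed the filter on low counts through its knockout libraries. The 4 WT_PBS libraries held 2, 1, 2 and 3 reads of Sox11, and the 4 WT_ASO libraries 4, 8, 8 and 10. The 4 KO_PBS libraries held 108, 91, 65 and 74 reads, and the 4 KO_ASO libraries 18, 25, 20 and 19. The 4 groups did not overlap, with KO_PBS highest, then KO_ASO, then WT_ASO and WT_PBS lowest. Groups without overlap were seen for 20.4% of all genes tested in KO_PBS vs WT_PBS (10.5% higher and 9.85% lower), for 10.4% in KO_ASO vs KO_PBS (6.34% lower) and for 3.22% in WT_ASO vs WT_PBS. The same share was 5.39% in KO_ASO vs WT_PBS and 6.97% in KO_ASO vs WT_ASO. On the CPM scale the means were 0.0557 ± 0.0157 in WT_PBS, 0.221 ± 0.0631 in WT_ASO, 2.24 ± 0.648 in KO_PBS and 0.660 ± 0.129 in KO_ASO (SD, n = 4 each).

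**Figure D4:**
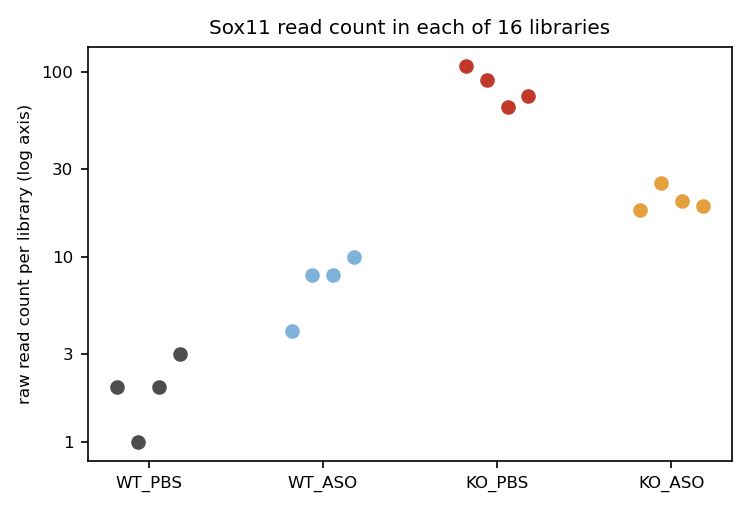
Raw read count of Sox11 in each of the 16 libraries on a log axis, by group. WT_PBS libraries hold 1 to 3 reads, WT_ASO 4 to 10, KO_ASO 18 to 25 and KO_PBS 65 to 108, without overlap.

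Sox11 was chosen by its difference between KO_ASO and WT_PBS, so its P values and intervals in comparisons that use either group are not independent of the choice and are given as a description. KO_PBS and WT_ASO, the groups that the choice did not use, held 65 to 108 and 4 to 10 reads. In saline-treated mice the log2FC of Sox11 between the genotypes was 5.21, with an SE of 0.34 (edgeR adjusted P = 1.03e-07). Its summed counts, 338 against 8, gave a ratio of 38.5 after scaling for depth, and the exact 95% interval, which covers counting error alone, ran from 19.3 to 89.9. Among knockout mice the log2FC for KO_ASO vs KO_PBS was -1.76 (SE 0.25, edgeR adjusted P = 0.00118), with every treated sample below every saline sample. In wild-type mice the difference had the opposite sign. The WT_ASO vs WT_PBS log2FC of Sox11 was 1.90 (SE 0.41), with 30 reads against 8 and a ratio of 3.90 (exact interval 1.75 to 9.85), and the edgeR adjusted P value was 0.215. The 4 WT_ASO samples lay above the 4 WT_PBS samples, as was the case for 1.80% of all genes tested. The interaction of genotype and oligonucleotide was -3.66 (SE 0.48, edgeR adjusted P = 0.00344).

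In KO_ASO vs WT_PBS itself no test was made. The 82 reads in KO_ASO against 8 in WT_PBS made a ratio of 11.4, and the log2FC fitted by edgeR was 3.45. Between the oligonucleotide groups, KO_ASO vs WT_ASO, the log2FC was 1.55 (SE 0.30) without overlap, and edgeR did not call it (adjusted P = 0.0745). DESeq2 did (adjusted P = 0.00961), as did edgeR with library totals (adjusted P = 0.0496).

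Genes tied to the response of muscle fibres to lost contact with the nerve, or that mark immature fibres, were read beside Sox11. Of 15 such genes tested, 12 rose and 0 fell in KO_PBS over WT_PBS, against 7.43% of all genes higher, with a median log2FC of 1.67 against -0.01 for all genes. In KO_ASO vs KO_PBS 5 of the 15 were lower and 0 higher, against 2.83% of all genes lower, with a median of -0.70 against 0.01. The count of 5 was 2 without KO_PBS replicate 1, and 3 with no filter, without KO_ASO replicate 1 or without KO_ASO replicate 3. It ran from 2 to 7 over the fits without 1 library and from 3 to 6 over the other alternatives. Ncam1, a cell adhesion molecule that spreads over denervated fibres, had a log2FC of 2.26 (SE 0.15, edgeR adjusted P = 1.03e-07) in the first comparison and -1.54 (SE 0.14) in the second. Runx1, a transcription factor of denervated muscle, had 2.30 (SE 0.25) and -1.49 (SE 0.24). Ncam1 measured 8.0 ± 0.805 CPM in WT_PBS and 7.90 ± 0.933 CPM in WT_ASO, against 38.3 ± 7.02 CPM in KO_PBS and 13.1 ± 2.39 CPM in KO_ASO (SD, n = 4 each). Its interaction was also called (log2FC -1.52, SE 0.20, edgeR adjusted P = 0.00348). Chrnd, an acetylcholine receptor subunit, had 2.65 and -1.74 (SE 0.37), beside 5.21 and -1.76 for Sox11, which was chosen on values of WT_PBS and KO_ASO. The members of this list were among genes known to move in these samples, so their counts do not bear on Sox11 independently.

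**Figure D5:**
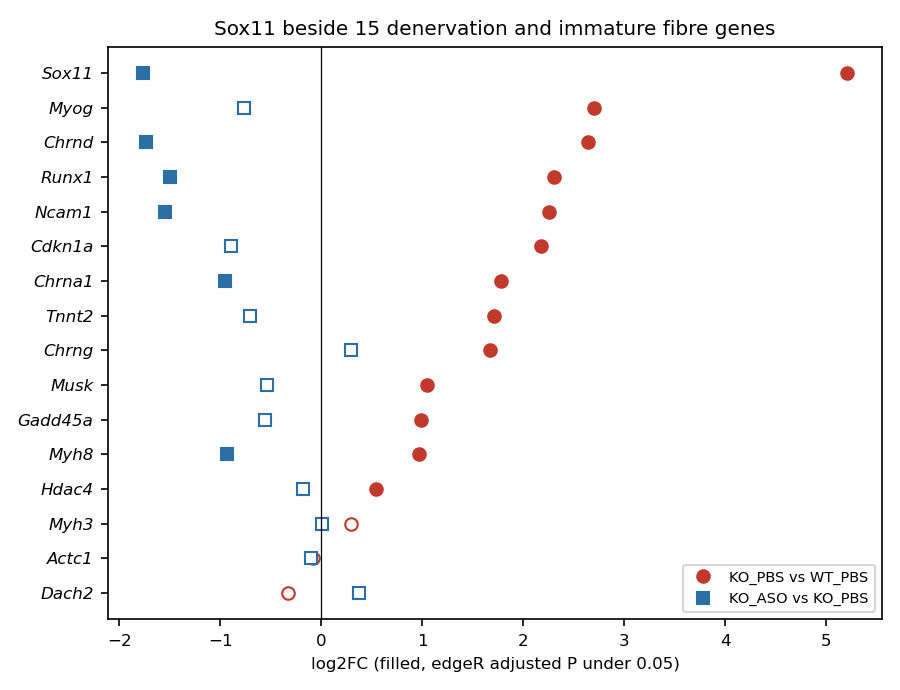
Log2FC of Sox11 and 15 denervation and immature fibre genes in KO_PBS vs WT_PBS (circles) and KO_ASO vs KO_PBS (squares), filled where the edgeR adjusted P value was under 0.05. For the 15 genes, 12 circles are filled and lie on the higher side in the first comparison, and in the second 5 squares are filled and lie on the lower side.

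Of 3 genes tied to Sox4 and Sox11 in developing neurons, only Tead2 had enough reads to be tested, and it was not called in KO_PBS vs WT_PBS (log2FC 0.15, SE 0.27). Tubb3, a neuronal tubulin, had 1 to 14 reads per library over all 16 samples and Dcx, a microtubule binder of young neurons, 0 to 6.

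Sox4 lay higher in all 4 KO_PBS samples than in all 4 WT_PBS samples but was not called, and that verdict turned on 1 library of another group. WT_PBS samples measured 1.81, 3.24, 2.65 and 2.83 CPM, and KO_PBS samples 6.23, 3.99, 4.36 and 5.84 CPM. KO_PBS lay above WT_PBS without overlap for 10.5% of all genes tested. The log2FC was 0.96 (SE 0.57, edgeR adjusted P = 0.302). WT_ASO samples measured 2.06, 18.0, 2.64 and 2.2 CPM, so WT_ASO replicate 2 stood 2.88-fold above the highest sample of any other group, with 621 raw reads. Without that library the KO_PBS vs WT_PBS difference was 0.96 with an SE of 0.20 and was called (edgeR adjusted P = 0.00606), since the groups share the estimate of the spread. It was also called when only the groups compared were fitted (adjusted P = 0.0144). KO_ASO samples, at 2.88, 4.47, 3.88 and 4.36 CPM, overlapped both WT_PBS and KO_PBS. The WT_ASO vs WT_PBS log2FC of Sox4 was 1.24 (SE 0.57, adjusted P = 0.763) with that library and -0.19 (SE 0.22) without it.

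Sox9, the master factor of cartilage (ENSMUSG00000000567, chromosome 11, 112782224 to 112787760, plus strand), rose in knockout muscle. WT_PBS samples measured 1.14, 1.71, 1.22 and 1.60 CPM, and KO_PBS samples 6.78, 5.52, 3.75 and 3.18 CPM. The log2FC was 1.76 (SE 0.40, edgeR adjusted P = 0.0091), a 3.39-fold difference without overlap. KO_ASO samples measured 2.72, 2.68, 0.865 and 2.30 CPM, all below the lowest KO_PBS sample. That difference, a log2FC of -1.16 (SE 0.39), did not pass with edgeR (adjusted P = 0.116) and passed with DESeq2 (adjusted P = 0.0484). WT_ASO samples, at 1.51, 2.92, 1.52 and 0.611 CPM, overlapped both WT_PBS and KO_ASO. The interaction of Sox9, -1.37 (SE 0.56), was not called (adjusted P = 0.32).

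Of 14 cartilage and tendon genes 10 could be tested, of which 1 rose and 1 fell in KO_PBS over WT_PBS, against 7.43% of all genes higher and 5.12% lower. These shares are too near the background to be read as a result about the list. The median log2FC was -0.02 against -0.01 for all genes. Scx, a transcription factor of tendon cells, was the higher one, at 1.27 ± 0.551 CPM in WT_PBS and 6.04 ± 2.02 CPM in KO_PBS (SD, n = 4 each), a log2FC of 2.24 (SE 0.32). Scx was also the 1 gene of the list called in KO_ASO vs KO_PBS, at -1.31 (SE 0.30). The latter call was lost without KO_PBS replicate 1, KO_ASO replicate 1 or KO_ASO replicate 3, and 2 genes of the list were called with DESeq2 or without WT_ASO replicate 2. Col9a1, a cartilage collagen, was the lower one (-1.14, SE 0.32), and the count of calls in KO_PBS vs WT_PBS was 1 in place of 2 without WT_PBS replicate 1, 2 or 3 or KO_PBS replicate 1 or 4. Cartilage itself was barely seen. The summed level of 4 chondrocyte markers was 0.670 to 1.19 CPM in WT_PBS and 0.397 to 1.05 CPM in KO_PBS, and Hapln1 and Matn3 were at 0 in some libraries. The sum of 3 tendon cell markers was 3.8 to 11.6 CPM in WT_PBS and 9.89 to 17.2 CPM in KO_PBS, and KO_PBS replicate 1, with the highest sum, also had the highest Sox9, 6.78 CPM, the highest Sox11, 2.98 CPM, and a macrophage sum of 178 CPM. In KO_ASO 1 of the 3 tendon cell markers fell, and the sum was 4.63 to 16.8 CPM. KO_PBS replicate 4, with the highest macrophage sum of 316 CPM, had the lowest Sox9 of its group, 3.18 CPM, and 1.82 CPM of Sox11. The macrophage sum was lower in all 4 KO_ASO samples than in all 4 KO_PBS samples, as were Sox9 and Sox11. The part of these cell types in the differences of Sox9, Sox11 and the denervation genes was not tested.

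Sox10 (ENSMUSG00000033006, chromosome 15, 79154908 to 79165240, minus strand), which drives myelin genes in Schwann cells, was called in none of the comparisons tested by edgeR, and its unadjusted P values were all above 0.05. Its levels were 0.521 to 1.74 CPM in WT_PBS, 0.752 to 1.73 in WT_ASO, 0.595 to 1.08 in KO_PBS and 0.485 to 1.5 in KO_ASO, with overlap throughout. An unadjusted P value under 0.05 in KO_PBS vs WT_PBS was reached by 2 of 13 Schwann cell and myelin genes tested, with a median log2FC of 0.03. Of the 13, edgeR called 0, against 12.6% of all genes. DESeq2 also called 0. With library totals, with only the groups compared, or without WT_ASO replicate 4 or KO_PBS replicate 4, the count was 1. The KO_PBS vs WT_PBS log2FC of Sox10 was -0.46 (SE 0.38).

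Sox8 (ENSMUSG00000024176, chromosome 17, 25565892 to 25570686, minus strand) is known from satellite cells, the stem cells of muscle. Its counts were low, 9 to 35 reads per library, and the levels of 0.337 to 0.745 CPM in WT_PBS and 0.222 to 0.772 CPM in KO_PBS overlapped. The log2FC was -0.08 (SE 0.41), and with library totals it was 0.07. Sox8 shares 329 exon bases with 2810468N07Rik, an antisense gene with a mean of 61.9 reads, and whether the counting used the strand is not given, so the reads of the 2 may be mixed. Sox4 shares 2616 exon bases with Gm26735 and Sox17 shares 804 with Gm37587, genes on the opposite strand with means of 0.5 and 0.25 reads. The effect of the strand setting on these levels was not tested. Of 9 satellite cell genes tested 6 were lower in KO_PBS and 0 higher, against 5.12% of all genes lower, with a median log2FC of -0.63 against -0.01 for all genes. Pax7, the transcription factor that defines satellite cells, fell from 4.23 ± 0.772 to 1.60 ± 0.527 CPM (SD, n = 4 each, log2FC -1.39, SE 0.22), and Calcr, the calcitonin receptor that marks resting satellite cells, had a log2FC of -2.43 (SE 0.55). The count of 6 was 3 with library totals and also without KO_PBS replicate 2 or either of WT_PBS replicates 3 and 4. In KO_ASO vs KO_PBS 0 of 9 were called by edgeR, against 3.64% of all genes. DESeq2 called 1, as did edgeR without WT_ASO replicate 4, KO_PBS replicate 3 or KO_ASO replicate 3. An unadjusted P value under 0.05 was reached by 4, and the median was 0.45.

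Sox6 (ENSMUSG00000051910, chromosome 7, 115470872 to 116038796, minus strand) fell in knockout muscle. WT_PBS samples measured 135, 181, 123 and 154 CPM, and KO_PBS samples 76.0, 97.1, 92.4 and 108 CPM, without overlap. The log2FC was -0.66 (SE 0.18, edgeR adjusted P = 0.0228), so KO_PBS held 63.2% of the WT_PBS level. The call was lost when KO_PBS replicate 1 was left out (adjusted P = 0.0843), and likewise for WT_PBS replicate 2 (0.0751) and WT_PBS replicate 4 (0.0590). KO_ASO samples measured 141, 134, 136 and 83.3 CPM, so that 3 of 4 lay above every KO_PBS sample and the other among them. The KO_ASO vs KO_PBS log2FC was 0.40 (SE 0.18, edgeR adjusted P = 0.239). WT_ASO samples lay at 125 to 204 CPM and overlapped WT_PBS.

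The 11 slow fibre and embryonic genes that Sox6 is known to hold down had a median log2FC of 1.18 in KO_PBS vs WT_PBS, against -0.01 for all genes, and 3 were called, all higher, against 7.43% of all genes. Tnni1, the slow troponin I, rose from 2.96 ± 1.13 to 25.7 ± 14.0 CPM (SD, n = 4 each, log2FC 3.10, SE 0.59), and Atp2a2, the calcium pump of slow fibres, from 42.3 ± 1.28 to 71.7 ± 5.99 CPM (log2FC 0.76, SE 0.17). The remaining one, named after its value was seen, was Csrp3, a muscle LIM protein (log2FC 2.77, SE 0.77). The slow myosin heavy chain Myh7 was not called, with a log2FC of 1.33 and an SE of 1.14. In KO_ASO vs KO_PBS 0 of 11 were called by edgeR, against 3.64% of all genes, and 0 by DESeq2 and limma-voom. An unadjusted P value under 0.05 was reached by 0, and the median was 0.11. The count in KO_PBS vs WT_PBS was 5 when only the groups compared were fitted, with the replicate number as a block, and without KO_ASO replicate 1. It was 2 with no filter, and 2 when WT_PBS replicate 1, 2 or 4 or KO_PBS replicate 1 or 2 was left out. Of the 8 muscle fibre markers, 3 were lower in KO_PBS.

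Sox5 (ENSMUSG00000041540, chromosome 6, 143828425 to 144781977, minus strand), the group D partner of Sox6, showed 14 to 35 reads per library. Its levels were 0.409 to 0.778 CPM in WT_PBS, 0.405 to 0.584 in WT_ASO, 0.453 to 0.863 in KO_PBS and 0.462 to 0.906 in KO_ASO. All groups overlapped, edgeR, DESeq2 and limma-voom called it in 0 comparisons, and its unadjusted P values lay above 0.05. Its log2FC was 0.12 (SE 0.29) in KO_PBS vs WT_PBS, where that of Sox6 was -0.66.

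The group F genes, which mark vessel walls, had overlapping groups in most comparisons. Sox7 (ENSMUSG00000063060, chromosome 14, 63943673 to 63950732, plus strand) measured 9.89, 10.1, 14.7 and 8.93 CPM in WT_PBS and 7.30, 8.01, 4.65 and 8.03 CPM in WT_ASO. The WT_ASO samples lay below the WT_PBS samples, as was the case for 1.42% of all genes, and the log2FC of -0.64 (SE 0.25) did not pass (edgeR adjusted P = 0.736). KO_PBS samples measured 7.31, 8.92, 10.4 and 8.11 CPM and KO_ASO samples 7.93, 11.4, 7.48 and 17.1 CPM, overlapping each other. The interaction of Sox7 was 0.97 (SE 0.35, edgeR adjusted P = 0.244).

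Sox17 (ENSMUSG00000025902, chromosome 1, 4490931 to 4497354, minus strand) had group means of 8.32 ± 1.67 CPM in WT_PBS, 7.22 ± 0.645 in WT_ASO, 8.14 ± 1.33 in KO_PBS and 9.61 ± 3.13 in KO_ASO (SD, n = 4 each). Sox18 (ENSMUSG00000046470, chromosome 2, 181669836 to 181671640, minus strand) had 6.17 ± 3.12, 3.97 ± 1.36, 6.93 ± 1.08 and 7.41 ± 3.18 CPM in the same order. Their groups overlapped in every comparison, and edgeR called neither. WT_PBS replicate 3 was the highest of its group for all 3 genes, at 14.7 CPM of Sox7, 10.6 of Sox17 and 10.6 of Sox18. KO_ASO replicate 4 was likewise the highest of its group, at 17.1, 14.0 and 11.3 CPM. The 5 endothelial markers summed to 443 and 434 CPM in these libraries, within the 318 to 454 CPM of WT_PBS and the 410 to 442 CPM of KO_ASO. Across the 16 samples Pearson's r of log2 CPM was 0.83 for Sox7 with Sox17, 0.73 for Sox7 with Sox18 and 0.72 for Sox17 with Sox18, a description over samples that share groups.

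Of 16 endothelial genes tested 1 was lower in KO_PBS than in WT_PBS, against 5.12% of all genes, a share near the background. It was Flt1, a receptor for vascular growth factors (log2FC -0.54, SE 0.12), and the median was -0.25. With the replicate number as a block the count was 2. In KO_ASO vs KO_PBS 0 were called by edgeR, against 3.64% of all genes, and 0 by DESeq2 and limma-voom. An unadjusted P value under 0.05 was reached by 4, and the median was 0.23. Of 4 lymphatic genes 1 was higher in KO_PBS, against 7.43% of all genes, and with 4 genes this is not read as a result about the list. It was Pdpn, which other cell types also express (log2FC 0.88, SE 0.26). Prox1, the lymphatic identity factor that works with Sox18, was not called (log2FC -0.37, SE 0.25). Lyve1, a hyaluronan receptor that some macrophages also carry and named after its values were seen, was not called either (log2FC 1.14, SE 0.39, edgeR adjusted P = 0.0662), with 1.83 ± 0.487 CPM in WT_PBS, 4.02 ± 1.31 in KO_PBS and 1.60 ± 1.16 in KO_ASO (SD, n = 4 each). An unadjusted P value under 0.05 was reached by 3 of the 4 in KO_PBS vs WT_PBS and by 3 in KO_ASO vs KO_PBS. In the latter edgeR called 0, against 3.64% of all genes, DESeq2 called 1 and limma-voom 1. The lymphatic count of 1 was 0 without WT_PBS replicate 1, 3 or 4 or KO_PBS replicate 1 or 4. It was 2 without KO_PBS replicate 3, KO_ASO replicate 2 or KO_ASO replicate 4, and 2 with library totals, DESeq2, limma-voom, the replicate block or only the groups compared.

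Of 10 further Sox genes 6 were in the table and 2 could be tested. Sox13, of group D, measured 14.0 ± 3.09 CPM in WT_PBS and 13.0 ± 1.78 CPM in KO_PBS, and Sox12, of group C, 1.28 ± 0.363 and 1.12 ± 0.106 CPM (SD, n = 4 each). edgeR, DESeq2 and limma-voom called 0 of these 2 in every comparison, and 0 had an unadjusted P value under 0.05. Sox2, Sox3, Sox15 and Sox30 had 0 to 3 reads in each library.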

How the data were processed

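The files deposited by the authors hold raw counts, without normalization, for every Ensembl gene in 16 samples. HTSeq 0.6.1p1, STAR 2.5.3a, Bowtie2 2.2.8 and cutadapt 1.10 are named in the submitters' processing notes together with the mouse build GRCm38 (mm10), and libraries came from a stranded mRNA kit. Neither the Ensembl release nor the strand setting of the counting is given in the sources used here. All 29730 identifiers matched GENCODE M21, from which symbols, coordinates and exon lengths were taken. Genes were filtered with filterByExpr by group, and 14770 were removed. The edgeR 4.0.16 quasi-likelihood test (robust, R 4.3.3) was fitted with TMM scaling and 1 mean per group over all 16 samples. Benjamini-Hochberg adjustment ran over 14960 genes, and a DEG was called at an adjusted P value under 0.05. The common biological coefficient of variation was 18.7%.

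The Sox genes and all gene lists were chosen with earlier results of these data known, the lists from general knowledge of each gene group. Named were all 10 Sox genes, the 2 genes of each list with the smallest P values among those called in KO_PBS vs WT_PBS and in KO_ASO vs KO_PBS, and the genes whose levels were most like those of each Sox gene. Other genes of a list are named where a count or an order turned on them. A gene of the denervation list is not reported here and was left out of its counts. Alternatives were relative log expression (RLE) size factors, library totals only, DESeq2 1.42.0, limma-voom (limma 3.58.1), no filter, a filter at a mean of 10 counts, only the groups compared, the replicate number as a block, and leaving out each of 16 libraries. On data simulated for KO_PBS vs WT_PBS with 14960 genes, the test recovered 66% of 2-fold and 92% of 4-fold changes. For Sox11 against WT_PBS, where libraries held 3 reads or fewer, ratios of summed counts carry a 95% exact interval, and such intervals cover counting error only. Each sample was taken to be a separate mouse. If some were not, P values measure only the spread between these samples, which may be technical. Replicates were compared for duplicates by a chi-square of their counts, whose mean over genes was at least 22.2 for each pair, where sampling noise alone gives about 1. The labels name no batch. Promoter sequences were in the RefSeq table for 5 of the 10 Sox genes, 4 of them with 1 promoter.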

Additional observations from a re-analysis of the deposited data

Results flagged for a closer look

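With 10 Sox genes in 4 groups, 40 sets of 4 samples were searched for a sample far from the rest (Dixon's test at the 95% level), and 3 had one, where chance gives about 1 in 20. Sox4 in WT_ASO replicate 2 stood at 18.0 CPM, with the other WT_ASO samples at 2.06 to 2.64 CPM. In that library 4 genes with at least 100 reads stood more than 2-fold above all 15 others, Odf3l2 (4.67-fold), Aldh3a1 (3.39-fold), Sox4 (2.88-fold) and Mettl21e (2.39-fold), and the same count in the other libraries ran from 0 to 76. Sox6 in KO_ASO replicate 4 stood at 83.3 CPM, below the 134 to 141 CPM of the other KO_ASO samples. Replicate 4 also had the lowest mean correlation with the samples of its group, 0.975, where the other libraries had 0.980 to 0.986. Sox18 in WT_ASO replicate 4 stood at 6.00 CPM, above the 3.19 to 3.47 CPM of the others. The part of library quality or of tissue taken in these samples was not tested.

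The oligonucleotide difference of Sox11 was of opposite sign in the genotypes, with an interaction log2FC of -3.66 (SE 0.48, edgeR adjusted P = 0.00344). Sox11 was chosen by KO_ASO and WT_PBS values that enter this interaction and every refit of it, so the P value is a description.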

How the results depend on the processing

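Of 1405 tested values of the Sox genes under alternatives, 1358 kept their direction and their side of the threshold, 5 became significant, 3 lost significance and 39 changed sign. The KO_PBS vs WT_PBS call of Sox9 held in all 8 alternatives of the fit. The number of Sox DEGs differed with DESeq2, which called 2 in KO_ASO vs KO_PBS and 1 in KO_ASO vs WT_ASO, and with library totals, which called 1 in KO_ASO vs WT_ASO. Fitting only the groups compared called 4 in KO_PBS vs WT_PBS, Sox4 being added. Leaving out 1 library gave 2 to 4 Sox DEGs in KO_PBS vs WT_PBS. The values that changed sign belonged to differences that were not called. With library totals they were 0.074 for Sox8 and 0.12 for Sox17 in KO_PBS vs WT_PBS and -0.071 for Sox5 in KO_ASO vs KO_PBS. With limma-voom they were -0.046 for Sox18 in KO_ASO vs KO_PBS and -0.062 for Sox7 in KO_ASO vs WT_PBS, where no filter gave Sox7 -0.00409 and the replicate block -0.031. Without 1 library the KO_PBS vs WT_PBS values ran from -0.044 to 0.29 (Sox5), -0.31 to 0.19 (Sox8), -0.12 to 0.11 (Sox17) and -0.037 to 0.57 (Sox18), and the KO_ASO vs KO_PBS values from -0.17 to 0.18 (Sox5) and -0.18 to 0.33 (Sox18). The WT_ASO vs WT_PBS values ran from -0.19 to 1.53 (Sox4), -0.23 to 0.49 (Sox9) and -0.084 to 0.44 (Sox10). In KO_ASO vs WT_PBS they ran from -0.051 to 0.31 (Sox5), -0.29 to 0.19 (Sox7), -0.33 to 0.21 (Sox10), -0.031 to 0.34 (Sox17) and -0.017 to 0.66 (Sox18). In KO_ASO vs WT_ASO they ran from -0.97 to 0.76 (Sox4) and -0.45 to 0.011 (Sox10), and the Sox10 interaction from -0.068 to 0.48. The causes were not tested.

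Same-numbered samples deviated together with correlations of -0.078 to 0.44, not all above 0.1, so the replicate numbers were not taken as pairs. With the replicate block, 3 Sox genes were called between the saline groups, 1 in KO_ASO vs KO_PBS, 0 in WT_ASO vs WT_PBS, KO_ASO vs WT_PBS and KO_ASO vs WT_ASO, and 1 for the interaction, the counts of the fit without it. Over all genes KO_ASO vs WT_ASO gave 11 DEGs, and 44 with the block, 412 with DESeq2, 6 with RLE, 4 with limma-voom and 2 with only the groups compared. WT_ASO vs WT_PBS gave 1, and 2 with the block, 3 with no filter and 35 with DESeq2. KO_ASO vs KO_PBS gave 544, and 1023 with DESeq2 and 300 with only the groups compared. KO_ASO vs WT_PBS gave 6, and 86 with DESeq2, and the interaction 86, with 362 by DESeq2, 56 by limma-voom and 23 to 102 without 1 library (23 without WT_PBS replicate 4, 26 without KO_PBS replicate 1). Without 1 library the DEGs ran from 997 (KO_PBS replicate 1) to 2137 (KO_ASO replicate 4) in KO_PBS vs WT_PBS, where all libraries gave 1878, from 208 (KO_PBS replicate 1) to 831 (KO_ASO replicate 4) in KO_ASO vs KO_PBS, from 1 to 4 (WT_PBS replicate 2) in WT_ASO vs WT_PBS, from 4 to 11 (KO_ASO replicate 3) in KO_ASO vs WT_PBS, and from 2 (among others WT_ASO replicate 2 or 3) to 19 (KO_PBS replicate 1 or KO_ASO replicate 3) in KO_ASO vs WT_ASO. Depth limits Sox11 in wild-type muscle, with 8 reads in WT_PBS in all.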

Other observations

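The genes whose log2 CPM followed that of Sox11 most closely over the 16 samples were Ttc39a (Pearson r 0.95), Ppfibp1 (0.94), Krt18, a keratin of simple epithelia (0.93), Srrm4os (0.93) and Tubb6, a tubulin (0.93). These values describe samples that share groups. With a prior count of 0.5 in place of 2, 4 of these 5 genes were again among the closest, and with 5 there were 3. Around Sox4 the closest was Gabarapl2, an autophagy protein (0.82), around Sox5 Plk2 (0.87), around Sox8 Akr1c14 (0.80) and around Sox10 Mpzl2 (0.83). The closest to Sox9 was Opn1mw (0.93), and the closest to Sox6 was Gm17586 (0.96), followed by Phc1 (0.96) and Phkb, a subunit of phosphorylase kinase in glycogen breakdown (0.96).

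Among the group F genes, Rps6kl1 was the closest gene to Sox17 (0.91) and the second closest to Sox7 (0.87), after Cdc42ep1 (0.92). Fgd5, a gene of endothelial cells, followed for Sox7 (0.85). Cavin1, a coat protein of caveolae, was closest to Sox18 (0.92), followed by Dll1, a Notch ligand (0.88).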
